A study of Homo sapiens with 8 samples.

Results

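The regions described here are the strongest distal H3K27ac intervals that 6 libraries of human colonic epithelial cells had in common. Overlapping peaks of the 6 peak lists were merged into 143733 intervals. Members were selected on 2 criteria: the highest peak of the interval had a fold over background of at least 15 in every library, and the summit of the highest peak of all lay more than 3 kb from the start of any annotated transcript. This left 897 intervals, 0.624% of all merged intervals and 30.2% of the 2966 that reached this fold in all libraries. The folds thus chose the members and are given as a description.

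The libraries were 3 from parental cells (WT) and 3 from CREBBP-KO cells, with chromatin taken from separate cell populations of each type. HCEC-1CT is a line of colonic epithelial cells immortalized with CDK4 and hTERT. The WT and the KO cells both derived from a line with doxycycline-inducible Cas9, and CREBBP was inactivated by transfected guide RNAs. The methods call the KO cells used for ChIP-seq monoclonal but also describe pools of several clones per target with a matched parental pool, and which of these a library came from is not given in the sources used here. Whether traits of 1 clone bear on the comparison was not tested. The separate populations are not stated to be separate clones, and p-values measure the spread between these libraries.

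Acetylation of histone H3 on lysine 27 marks active promoters and enhancers. CREBBP and its paralogue EP300 are the acetyltransferases that deposit most of it, and they are recruited to enhancers by sequence-specific factors such as AP-1, a dimer of FOS and JUN proteins. Distal enhancers can lie far from the gene they act on, inside another gene or between genes. The nearest protein-coding start, used here to name an interval, is therefore a label and not a measured target.

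The promoters of cell type markers were looked up first. Of 8 colonic markers, 7 (CDX1, CDX2, HNF4A, VIL1, KRT20, CDH17 and LGR5) had no peak at a start in any library, and MUC2, a mucin gene, had one in all 6. Of 6 epithelial markers, CDH1, KRT19 and CLDN4 had none in any library, while EPCAM and KRT8 had low peaks in all. All 7 mesenchymal markers (VIM, ZEB1, TWIST1, CDH2, COL1A1, COL1A2 and FN1) had peaks in all libraries, with a summed fold of 113.4 to 125 in WT libraries and of 162.4 to 187 in CREBBP-KO libraries. All 4 immune markers were without a peak. PECAM1, an endothelial marker, had a peak in the CREBBP-KO libraries only, with a fold of 2.8 to 3.6. As most of the defining colonic promoters were without a peak, the regions are called by their rule and by their nearest genes.

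A typical member was a broad block of acetylation. Peaks covered a median of 6069 bases in it, against 2262 in the 18009 other distal intervals tested for genotype differences and 4472 in the 2069 intervals that reached the same fold near a transcript start. Member length ranged from 1556 to 75937 bases. The summits of the 6 libraries lay within 200 bases of each other in 483 members (53.8%) and more than 1000 bases apart in 143 (15.9%). Although the summit of each member was distal, 108 intervals (12.04%) were wide enough to hold a transcript start, against 1.98% of other distal intervals.

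Nearly all members were intronic or intergenic. The summit lay in an intron of a protein-coding gene in 428 members (47.7%), in an intron of a non-coding gene in 16.8% and outside genes in 292 (32.6%). It lay in an untranslated region in 11 members, in a coding exon in 5 and in another exon in 10. The same 3 leading classes held 53.1%, 12.5% and 30.6% of other distal intervals. The median distance to the nearest protein-coding start was 43.6 kb, close to the 40.2 kb of other distal intervals, and 258 members (28.8%) lay more than 100 kb away. Of the 448 members inside a protein-coding gene, 386 lay in the gene with the nearest start and 62 only in another gene.

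AP-1 motifs were denser beside the summits than at them. The motif, TGANTCA, was found within 150 bases of the summit in 9.48% of members, against 11.8% of other distal intervals and 8.84% of the 34847 tested intervals that lay on assembled chromosomes. Its density was 0.346 matches per kb from 0 to 150 bases from the summit, rose to 1.07 from 150 to 500 bases and was 0.361 from 2000 to 3000 bases. Other distal intervals had 0.437, 1.03 and 0.335 at these distances, and strong intervals near a start 0.136, 0.328 and 0.301. In the 845 members with a match in the interval, the match nearest to the summit lay at a median distance of 386 bases. It lay between 150 and 500 bases in 444 of the 897 members (49.5%). Neither value is given for other distal intervals, so this is not shown to be particular to members. These are descriptions of the reference sequence, which was searched on both strands.

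**Figure D1:**
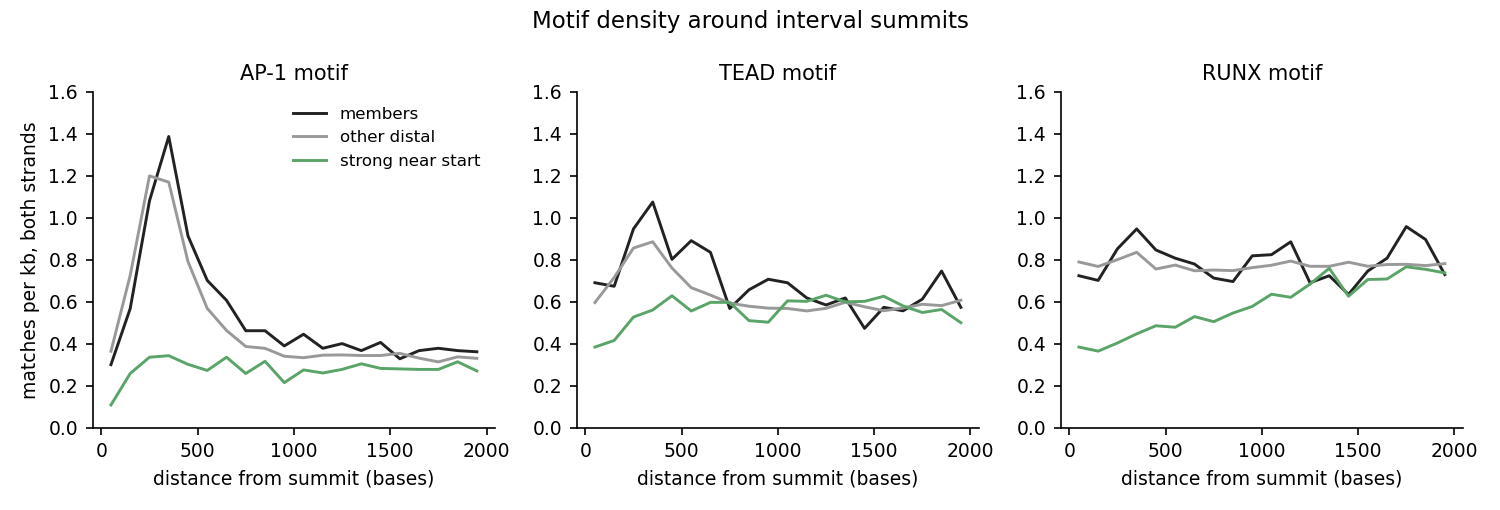
Matches per kb (y axis) against distance from the summit in bases, in steps of 100 bases (x axis), for the AP-1, TEAD and RUNX motifs in members (black), other distal intervals (grey) and strong intervals near a start (green). Between 300 and 400 bases members have 1.39 AP-1, 1.08 TEAD and 0.948 RUNX matches per kb, against 0.301, 0.691 and 0.725 in the first 100 bases.

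The following windows are from members that return in the comparison of genotypes or that head the list. They are stretches of the hg38 plus strand centred on the AP-1 match nearest to the summit, with the match in capitals, and were picked after their values were seen. The match lay 261 bases from the summit near KRT80, 610 near SNX18, 353 near YAP1, 294 near KPNA3 and 288 near AKR1E2. The SNX18 match was thus outside the range of 150 to 500 bases.
KRT80 AP-1 window, chr12:52147391-52147451: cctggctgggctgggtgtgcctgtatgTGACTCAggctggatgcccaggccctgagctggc
SNX18 AP-1 window, chr5:54744521-54744581: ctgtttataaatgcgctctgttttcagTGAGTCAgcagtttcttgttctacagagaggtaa
YAP1 AP-1 window, chr11:102171257-102171317: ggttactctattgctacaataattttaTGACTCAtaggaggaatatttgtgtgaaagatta
KPNA3 AP-1 window, chr13:49858361-49858421: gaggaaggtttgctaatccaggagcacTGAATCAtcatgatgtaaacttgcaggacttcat
AKR1E2 AP-1 window, chr10:4771500-4771560: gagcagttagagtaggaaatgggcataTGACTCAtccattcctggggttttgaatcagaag
Near PTPRQ the nearest match was 2603 bases away and near SLC9A9 5764 bases, so that members of the highest rank were found with and without a close AP-1 match. It was also beyond 500 bases near CCDC200 (642), VGLL3 (734) and ARHGAP42 (1650), whose windows are not printed.

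The summits of 4 members, shown with 100 bases on each side on the plus strand with any of the 11 searched motifs in capitals, held no AP-1 match. The window near VGLL3 held a match to the TEAD motif, GGAATG, on the other strand, 73 bases before the summit.
KRT80 summit, chr12:52147060-52147260: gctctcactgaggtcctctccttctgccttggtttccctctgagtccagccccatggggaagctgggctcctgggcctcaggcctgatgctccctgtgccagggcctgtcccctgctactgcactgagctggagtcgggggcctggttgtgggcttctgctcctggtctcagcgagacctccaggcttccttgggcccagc
SNX18 summit, chr5:54743841-54744041: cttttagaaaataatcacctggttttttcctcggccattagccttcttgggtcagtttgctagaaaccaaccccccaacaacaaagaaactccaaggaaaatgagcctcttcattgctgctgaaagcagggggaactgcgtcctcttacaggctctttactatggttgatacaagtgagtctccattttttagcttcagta
YAP1 summit, chr11:102171540-102171740: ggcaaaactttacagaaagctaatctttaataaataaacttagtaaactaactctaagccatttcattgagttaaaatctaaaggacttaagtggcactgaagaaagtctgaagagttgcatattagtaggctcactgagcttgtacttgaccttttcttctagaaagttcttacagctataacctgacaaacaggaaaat
VGLL3 summit, chr3:86794412-86794612: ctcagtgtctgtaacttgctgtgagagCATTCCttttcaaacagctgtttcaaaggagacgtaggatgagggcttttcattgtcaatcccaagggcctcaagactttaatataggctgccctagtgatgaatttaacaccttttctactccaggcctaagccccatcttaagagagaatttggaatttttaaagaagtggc

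TEAD matches, bound by the factors through which YAP1 acts, were found within 150 bases of 17.7% of member summits, against 16.5% of other distal intervals and 14.7% of all tested. Their density in members was 0.919 per kb from 150 to 500 bases and 0.582 from 2000 to 3000 bases. For the RUNX motif, searched as TGTGGT, the share was 19.7% against 20.7% in other distal intervals and 16.8% in all tested. The forkhead motif, searched as TGTTTAC, was found in 4.57% of members, 5.59% of other distal intervals and 4.37% of all tested. The GATA motif, searched as AGATAA, was found in 19.2%, 18.9% and 14.1% in the same order.

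Motifs common at promoters were rare in members, as they were in other distal intervals. The KLF/SP motif, searched as GGGCGG, was found in 6.47% of members and 5.62% of other distal intervals. Strong intervals near a start had it in 51.3% and all tested in 22.5%. The ETS motif, searched as CCGGAA, was found in 2.90%, 3.10%, 19.3% and 7.92% in the same order. The NF-kB motif, searched as GGGANTTCC, was found in 1.00% of members and 1.14% of all tested. The HNF1 motif, searched as GTTAATNAT, was found in 1.11% and 0.657%. The SMAD motif, searched as GTCTAGAC, was found in 0.111% and 0.143%, and the CREB motif, searched as TGACGTCA, in 0 members and 0.218% of all tested. Members and other distal intervals had the same median GC content, 43.2% within 150 bases of the summit, and strong intervals near a start 64.1%.

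The 12 members with the highest fold percentile averaged over the 6 libraries are described next, with their rank among the 897 in each genotype. A rank here is the order of the mean of the ranks in the 3 libraries. The highest of all lay in an intron of PTPRQ, a receptor-type phosphatase gene, at chr12:80574187-80585844. Its folds were 46.2, 38.8 and 35.1 in WT and 35.4, 48.1 and 44.7 in CREBBP-KO. The genotypes overlapped, and it ranked 3 in WT and 6 in CREBBP-KO, the only member in the top 10 of both.

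The next, outside genes and 65.4 kb from a start of KPNA3, an importin gene, had folds of 39.2, 31.4 and 30.5 in WT and 42.2, 43.2 and 46.3 in CREBBP-KO (ranks 23 and 2). The member near AKR1E2, an aldo-keto reductase gene, headed the WT list with folds of 45.1, 42.6 and 41.7 and had 34.2, 38.8 and 37.4 in CREBBP-KO (ranks 1 and 13). All 3 WT libraries stood above all 3 CREBBP-KO libraries there. The rank shift, defined with the comparison of genotypes, was -0.98 (SE 0.24, adjusted p = 0.00327 from limma) and was not called by -log10 p (adjusted p = 0.19 from limma). The member in an intron of SLC9A9, an endosomal sodium/proton exchanger, ranked 7 and 16, and the member nearest to VGLL3, a cofactor of TEAD factors, 5 and 21. In ARHGAP42 the ranks were 4 and 18, in THRB, the thyroid hormone receptor beta gene, 9 and 30, and in OSBPL3, an oxysterol-binding protein gene, 9 and 35.

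Members that stood higher in the CREBBP-KO order included an interval in an intron of MOK, a protein kinase gene. Its folds were 30.9, 28.3 and 31.1 in WT and 42.2, 42.4 and 41.9 in CREBBP-KO (ranks 47 and 3). Near CYTH3, an ARF exchange factor gene, the folds were 29.4, 27.3 and 28.5 against 40.6, 39.4 and 40.5 (ranks 75 and 7), and near KIF18A, a mitotic kinesin gene, 30.4, 30.1 and 28.9 against 39.0, 38.1 and 35.5 (ranks 50 and 13). At these 3 members, and at the one near KPNA3, the rank shift was positive but not called (adjusted p = 0.0672 to 0.534 from limma). With centred log2 folds, KPNA3, MOK and CYTH3 were called higher (adjusted p = 0.0272, 0.00309 and 0.00263 from limma). The member nearest to MAP2K6, a kinase that activates p38, ranked 18 and 23.

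The order of members differed more between genotypes than within them. Across the 897 members, Spearman's rank correlation of the folds was 0.683 to 0.767 for the 3 pairs of WT libraries, 0.766 to 0.788 for the 3 pairs of CREBBP-KO libraries and 0.398 to 0.432 for the 9 pairs of a WT and a CREBBP-KO library. Members are not independent replicates, and the values are descriptive. The top 100 of the genotypes shared 40 members, and 15 members were in the top 100 of every library. The ratio of the highest to the lowest of the 6 folds had a median of 1.37 and reached 2.73. The selection by a fold of at least 15 in every library limits this ratio, and it is not given for other intervals. The mean fold was more than 1.5 times higher in WT at 12 members and in CREBBP-KO at 32. These counts use folds as deposited, which differ in scale between libraries. Over all tested intervals the median log2 difference of such folds was 0.134, higher in CREBBP-KO. The share of all tested intervals beyond 1.5 times is not given here.

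**Figure D2:**
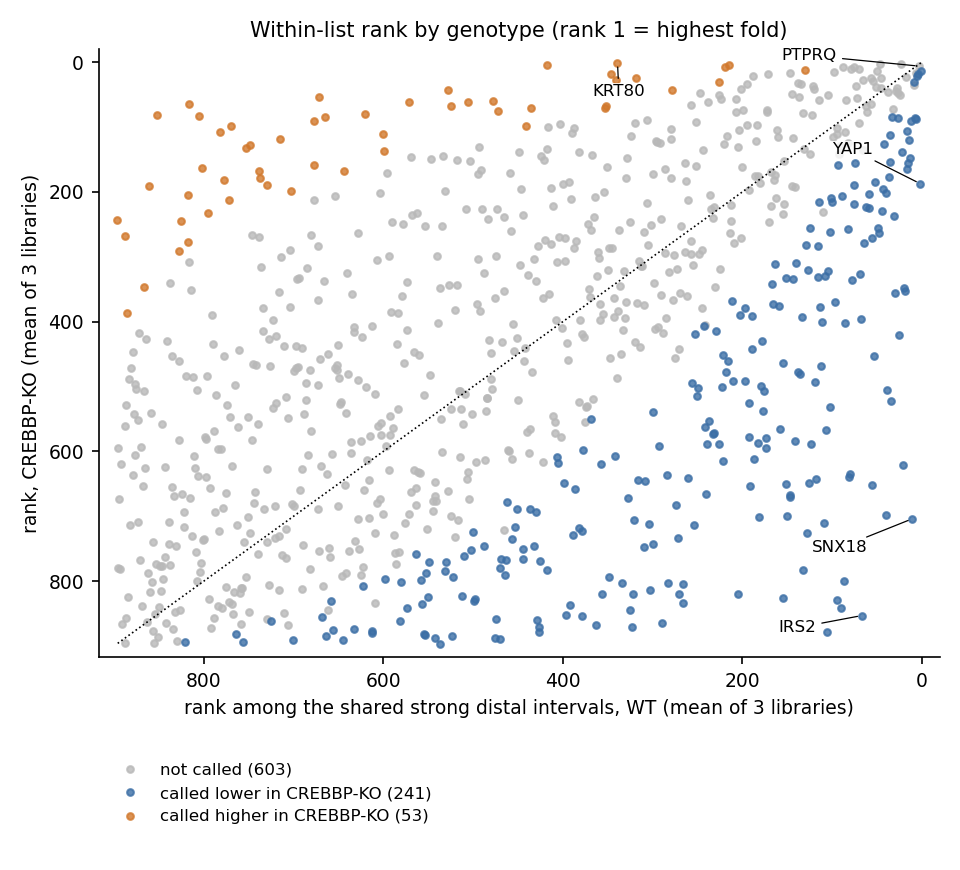
Rank of each of the 897 members in CREBBP-KO (y axis) against WT (x axis), each by the mean rank over 3 libraries, with rank 1 at the top right. The dotted line marks equal rank, blue points are the 241 members called lower and orange points the 53 called higher in CREBBP-KO, and PTPRQ lies at the top of both orders.

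Whether a member changed its place between genotypes was tested against all intervals, not within the list. The 34864 intervals with a peak in all 6 libraries and a fold of at least 5 in all 3 libraries of a genotype were ranked by fold in each library. Ranks were turned into normal scores, in which 1 unit is a standard deviation of the list, and the shift, CREBBP-KO minus WT, was fitted with limma. The selection set a lower limit on all 6 folds, which bounds how far a member could move, so that nothing is read from the size of the shifts of members against that of other intervals. A fold of 15 also sat at different heights of the lists: it was reached by 6.31% to 7.50% of the intervals with a peak in WT libraries and by 7.71% to 9.12% in CREBBP-KO libraries.

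More members ranked lower than higher in CREBBP-KO, and the size of this gap depended on the scale. The counts over members are a description: the folds that chose the members are also the values ranked, and the unequal height of a fold of 15 in the lists sets part of any difference from the background. At an adjusted p under 0.05, 53 members (5.91%) ranked higher and 241 (26.9%) lower, where 18.6% of all tested intervals ranked higher and 18.7% lower. With log2 folds centred on each library's median in place of ranks, 113 members (12.6%) were higher and 132 (14.7%) lower. Of all tested intervals, 21.3% were higher and 17.6% lower on that scale. The median shift of members was -0.22, that of all tested intervals 0.02 and that of other distal intervals -0.12. On the log2 scale as deposited, the median difference was 0.06 in members and 0.13 in all tested intervals. The median of members was thus positive on this scale and negative by rank. How many members had both a higher fold and a lower rank is not given here. Ranked by -log10 p, 50 members (5.57%) were higher and 132 (14.7%) lower, against 12.4% and 12.9% of all tested intervals. Strong intervals near a start had 17.1% higher and 14.9% lower calls by rank of fold, with a median of 0.02.

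Most members, 603 (67.2%), passed the test in neither direction. Ranks of the genotypes did not overlap at 90 members that were higher in CREBBP-KO and 314 that were lower, 10.0% and 35.0% of members, against a background of 24.8% and 23.3%. Over 4 groups of members ordered by height, the number called higher was 3, 11, 21 and 18 from the lowest to the highest group, and the number called lower 53, 63, 59 and 66. The groups were formed from the folds that are also ranked, so that these counts are a description. Lower calls outnumbered higher ones in introns of protein-coding genes (116 and 23), in introns of non-coding genes (41 and 7) and outside genes (79 and 22). Other distal intervals of all locations had 24.4% lower and 14.7% higher calls. A background for each location or height group is not given here. Without the members that hold a transcript start, 48 were higher and 212 lower.

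**Figure D3:**
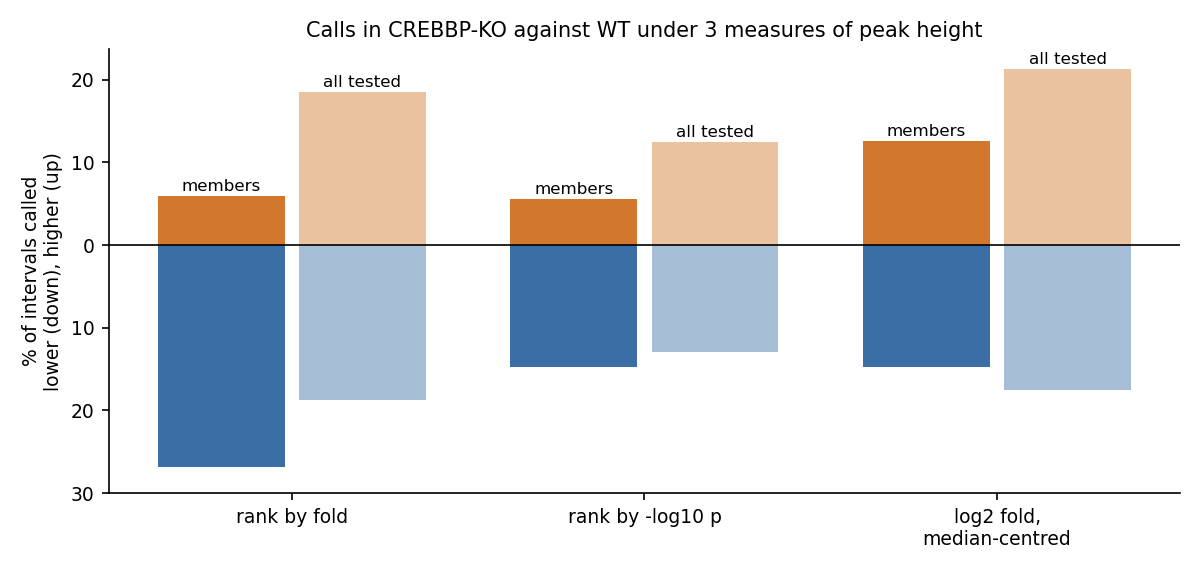
Percent of the 897 members (solid bars) and of all 34864 tested intervals (pale bars) called higher (orange, upward) or lower (blue, downward) in CREBBP-KO, for 3 measures of peak height. Lower calls exceed higher calls in members under each measure, 241 against 53 with ranks of fold, 132 against 50 with ranks of -log10 p and 132 against 113 with centred log2 folds. In the same order, 18.7%, 12.9% and 17.6% of all tested intervals are lower and 18.6%, 12.4% and 21.3% higher.

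The members that rose most in rank came from different settings. They, and the members that fell most, were taken from called members whose genotypes did not overlap, so that absence of overlap was a condition. The largest upward shift was at chr12:52142601-52153473, outside genes and 44.8 kb from a start of KRT80, a type II keratin gene. Its folds were 27.2, 22.2 and 18.8 in WT and 48.6, 49.1 and 51.2 in CREBBP-KO, without overlap. It went from rank 339 of the members to rank 1, a shift of 1.71 (SE 0.22, adjusted p = 1.21e-05 from limma). Peaks there also covered more bases in CREBBP-KO, 10115 to 10291 against 7222 to 8273.

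A compact interval near CCDC200, at chr17:43314880-43316859, had folds of 20.2, 20.0 and 22.0 in WT and 37.7, 44.1 and 39.9 in CREBBP-KO (ranks 418 and 5, shift 1.26, SE 0.19, adjusted p = 4.25e-05 from limma). Inside NT5C2, a nucleotidase gene, and nearest to RPEL1, the folds were 17.1, 18.2 and 16.3 against 34.6, 29.4 and 31.1 (ranks 816 and 64, shift 1.04). In BNIP3L, which encodes a mitophagy receptor, they were 15.7, 15.1 and 18.3 against 27.3, 31.5 and 31.5 (ranks 852 and 82, shift 1.02). Each of these 3 members had all its CREBBP-KO folds above all its WT folds. Ranked by -log10 p, the BNIP3L member was no longer called (adjusted p = 0.0685 from limma). The other members of this group lay in GIPC2 (ranks 215 and 4, shift 0.95), near MREG inside LINC00607 (672 and 54, 0.91), in SUGCT (528 and 43, 0.87) and near NANOS3 (805 and 83, 0.87).

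The members that fell most in rank included intervals at the top of the WT order. At chr5:54735165-54747029, outside genes and 226 kb from a start of SNX18, a sorting nexin gene, the folds were 40.3, 41.4 and 30.6 in WT and 15.8, 22.2 and 18.2 in CREBBP-KO. Its rank went from 11 to 704, with a shift of -2.04 (SE 0.22, adjusted p = 2.2e-06 from limma), and its covered length was 11021 to 11561 bases in WT libraries but 7824 to 9631 in those of CREBBP-KO. The transcriptional coactivator of the Hippo pathway, YAP1, held another in an intron, at chr11:102167068-102180290. Its folds were 49.6, 42.3 and 38.5 against 24.5, 29.3 and 25.6. This member ranked 2 in WT and 187 in CREBBP-KO, a shift of -1.80 (SE 0.22, adjusted p = 6.42e-06 from limma). At both members the genotypes did not overlap.

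Near KCNA4, a potassium channel gene 706 kb away, the folds were 36.1, 35.6 and 29.1 in WT and 16.1, 22.2 and 20.5 in CREBBP-KO (ranks 21 and 621, shift -1.64). Near IRS2, which encodes an adaptor of the insulin receptor and lies 530 kb away, they were 28.2, 32.8 and 27.2 against 15.8, 17.1 and 18.0 (ranks 67 and 853, shift -1.54). In ZHX3, a homeobox repressor gene, they were 31.2, 28.9 and 23.5 against 17.5, 15.7 and 15.4 (ranks 106 and 878, shift -1.45). At all 3 the lowest WT fold was above the highest CREBBP-KO fold. The same held in OSBP2 (ranks 40 and 698, shift -1.45), in PDS5B, a cohesin regulator gene (90 and 841, -1.39), and near MSRB3 inside MSRB3-AS1 (25 and 421, -1.38). Of the 16 members with the largest shifts, 15 were called with the same sign under every alternative run, BNIP3L being the exception given above.

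**Figure D4:**
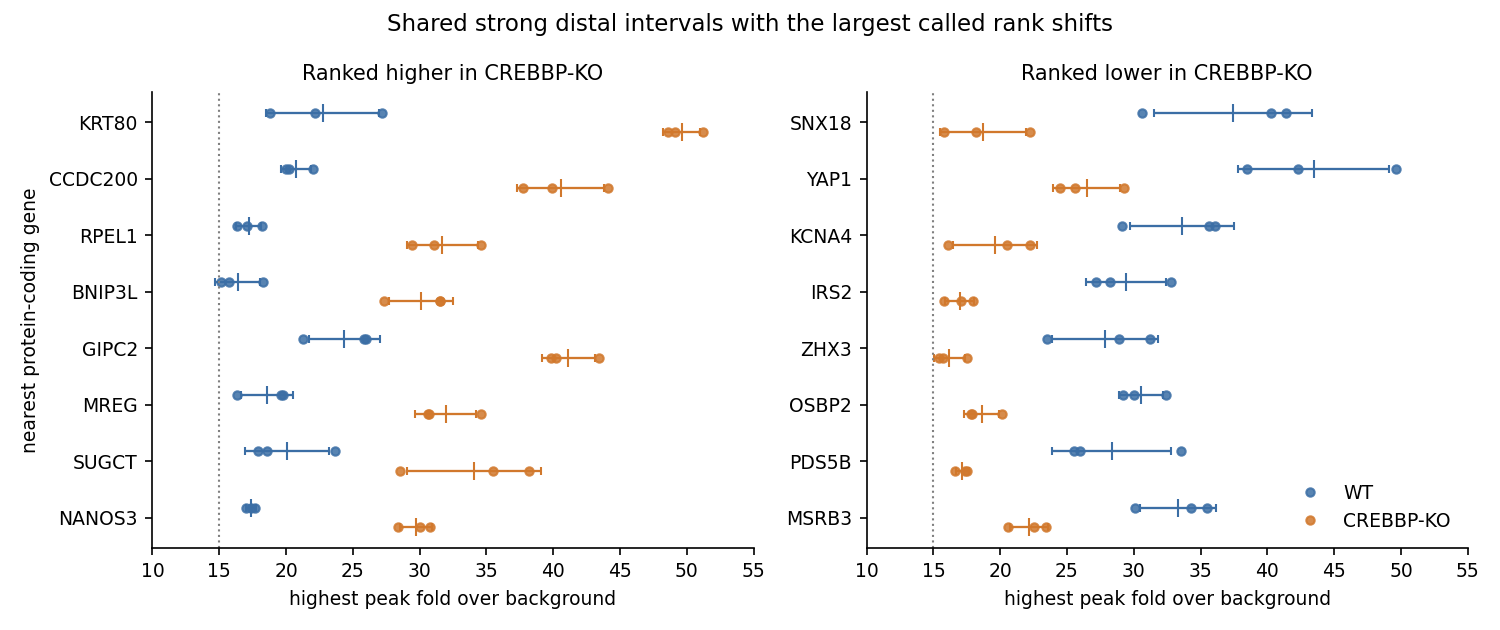
Highest peak fold (x axis) in each WT (blue) and CREBBP-KO (orange) library for the 8 members with the largest called shifts in each direction, named by nearest protein-coding gene. Points are libraries, bars the mean and SD of 3, and the dotted line the fold of 15 that chose the members. Absence of overlap between the genotypes was a condition for being shown, and KRT80 reaches 51.2 in CREBBP-KO.

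The covered length of an interval was a measure the selection did not use. At an adjusted p under 0.05, 37 members (4.12%) were wider and 46 (5.13%) narrower in CREBBP-KO, where 5.44% of all tested intervals were wider and 4.39% narrower, so that both counts were near the background. These counts moved with the library left out: 11 members were wider without WT replicate 1, 22 without WT replicate 2 or 3, 20 without CREBBP-KO replicate 1, 15 without CREBBP-KO replicate 2 and 16 without CREBBP-KO replicate 3. For narrower members the counts were 17, 20, 28, 25, 21 and 47 in the same order of libraries. The background moved as well: in these fits 2.25% to 3.65% of all tested intervals were wider and 1.74% to 4.43% narrower. Width and rank mostly went the same way where both were called: 22 members were lower and narrower and 5 higher and wider, while 3 were lower and wider and 0 higher and narrower. Both measures come from the same peaks. The matching counts over all tested intervals are not given here, so this is not shown to be particular to members.

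Among wider members, peaks in LTBP2, which encodes a latent TGF-beta-binding protein, covered 4557, 5865 and 4854 bases in WT and 9856, 9750 and 8890 in CREBBP-KO, a log2 change of 0.91 (SE 0.10, adjusted p = 0.00312 from limma). Near ZNF32 the log2 change was 0.71 and in CCNY, a cyclin gene, 0.61. The largest loss was near NDUFV2, a subunit gene of respiratory complex I, from 5295, 4936 and 5642 bases to 2581, 3028 and 2884 (log2 change -0.90). In PALLD, an actin-binding protein gene, 12864, 11469 and 13209 bases became 6668, 7721 and 6085 (log2 change -0.88). Near HTR1B, a serotonin receptor gene, the log2 change was -0.83, and near PRNP, the prion protein gene, -0.81. Covered lengths of the genotypes did not overlap at LTBP2, NDUFV2 or PALLD.

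The widest member spanned 75937 bases on chromosome 6 over TRAM2 and held 17 transcript starts. Its peaks covered 69275 to 71958 bases in WT libraries, against 73297 to 74024 in CREBBP-KO. Members of 53688 bases in MYOF, the myoferlin gene, of 50203 in SCHIP1, of 47918 over MIR222HG and of 47033 in SEPTIN11 followed. Of these 5, the member over MIR222HG, the host transcript of a microRNA pair, was called lower in rank (shift -0.60, SE 0.19, adjusted p = 0.0163 from limma), with folds of 25.6, 27.9 and 20.7 in WT and 22.2, 22.3 and 20.8 in CREBBP-KO. That call was lost with WT replicate 2 left out (adjusted p = 0.11 from limma), with CREBBP-KO replicate 3 left out (adjusted p = 0.0764 from limma), without a trend (adjusted p = 0.0597 from limma), with centred log2 folds (adjusted p = 0.0871 from limma) and by -log10 p (adjusted p = 0.922 from limma). All 5 were among the intervals that hold a transcript start.

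Members were spread over 752 nearest genes, of which 108 had 2 or more and 27 had 3 or more. When members within 50 kb of each other were joined, 806 stretches resulted, of which 733 held a single member. The gene with the most members was CITED2, whose product is a small transactivator that binds CREBBP and EP300. Its 7 members lay in non-coding genes of the region beside it, 166 to 1163 kb from its start. Their shifts ranged from -0.59 to 0.30. The most distant, inside a non-coding gene at chr6:140535437-140542023, had folds of 33.9, 33.6 and 21.9 in WT and 29.4, 25.7 and 32.1 in CREBBP-KO, with overlapping genotypes. The member in FILNC1, at 29.3, 22.5 and 21.8 against 20.8, 21.1 and 22.5, was called lower (shift -0.59, SE 0.18, adjusted p = 0.012 from limma), but not with WT replicate 1 left out (adjusted p = 0.0828 from limma), by -log10 p (0.199) or with centred log2 folds (0.0774). A member in LINC02941 was also called lower (shift -0.42, adjusted p = 0.0411 from limma) and lost the call with WT replicate 1 or 2 or any CREBBP-KO library left out, at adjusted p of 0.0644 to 0.156 from limma, with centred log2 folds (0.165) and without a trend (0.0997).

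DIPK2B, a secreted kinase-like protein gene on the X chromosome, had 6 members 279 to 602 kb from its start, 5 of them in a stretch of 194 kb that holds LINC01204 and MIR222HG. All 6 shifts were negative, from -0.60 to -0.06, and 2 passed the test, the one over MIR222HG and one in LINC01204 (shift -0.59, adjusted p = 0.00701 from limma). The latter was not called by -log10 p (adjusted p = 0.161 from limma) or with centred log2 folds (adjusted p = 0.0619 from limma). Over all tested intervals of the X chromosome the median shift was -0.23, against 0.02 over all tested intervals. Over the 14 members on this chromosome it was -0.33, so that the negative shifts are not shown to be particular to this stretch. ASAP1, an Arf GTPase-activating protein gene, had 4 members next to each other inside its body. At 3 of them the rank was lower in CREBBP-KO, with shifts of -0.79, -0.78 and -0.73, and the fourth had a shift of 0.00 with an adjusted p of 0.989 from limma. The 3 calls were not made when peaks were ranked by -log10 p (adjusted p = 0.0923 to 0.48 from limma).

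PTPRQ had 4 members inside its body and none was called. Of the 4 members of NEDD9, which encodes a scaffold protein of focal adhesions, the highest had folds of 31.7, 30 and 30.6 in WT and 24.1, 28.9 and 26.9 in CREBBP-KO (shift -0.75, SE 0.18, adjusted p = 0.00308 from limma). Its peaks covered 17157 to 19206 bases in WT libraries, against 21722 to 22087 in CREBBP-KO (log2 change 0.26, adjusted p = 0.019 from limma), so that it was lower and wider at once. CCDC54 was one of the genes with 3 members and was taken among them for its mean percentile. Of its members, the one in LINC00882 at chr3:107212441-107228994 was called higher. Its folds were 26.6, 24.4 and 21.6 in WT and 36.5, 43.3 and 37.8 in CREBBP-KO (ranks 219 and 8, shift 0.83, SE 0.20, adjusted p = 0.00259 from limma), and the call was lost when peaks were ranked by -log10 p (adjusted p = 0.116 from limma).

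**Figure D5:**
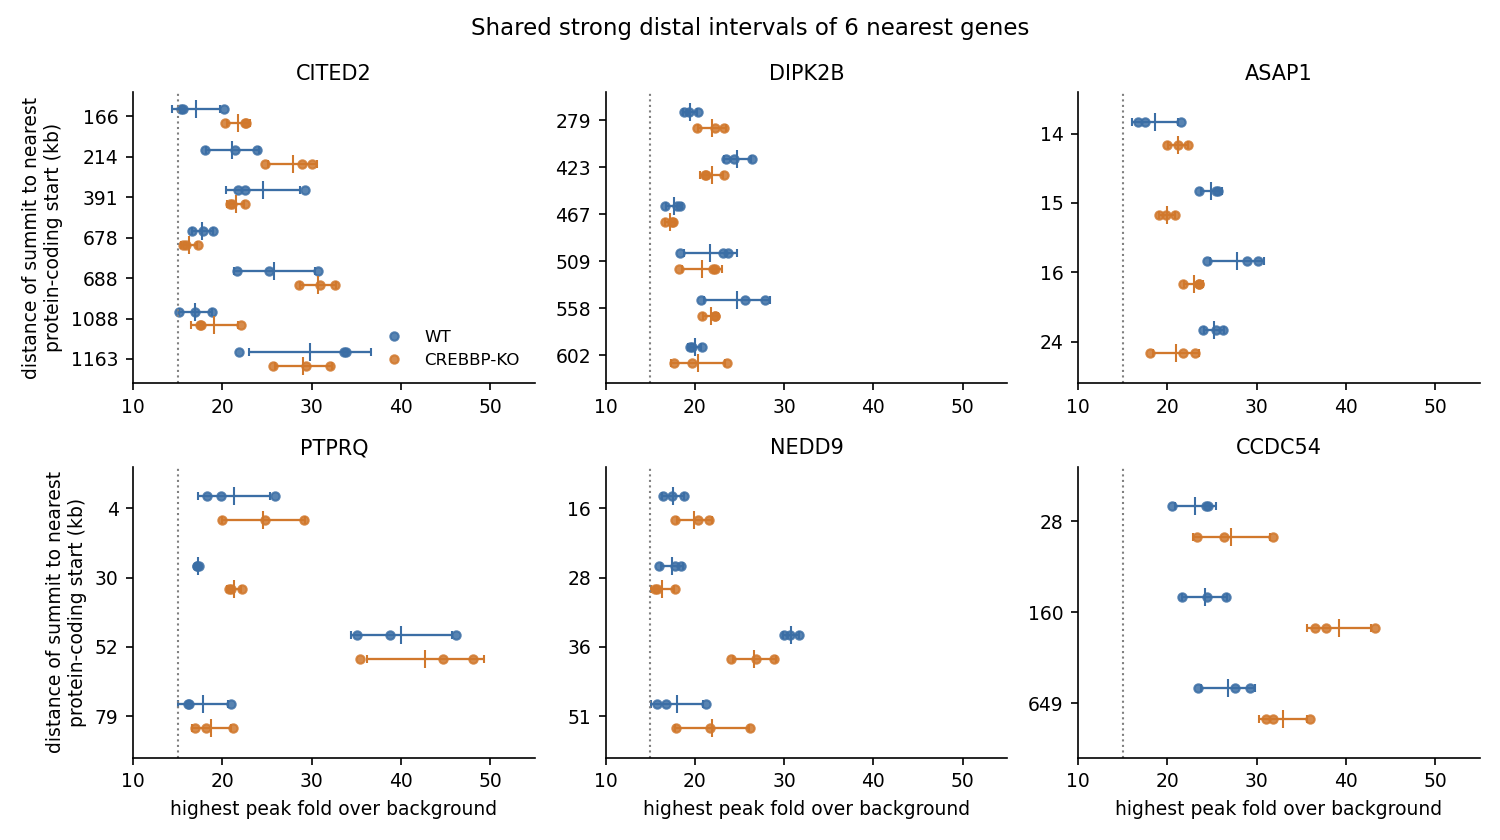
Highest peak fold (x axis) in each WT (blue) and CREBBP-KO (orange) library at every member of the 5 nearest genes with 4 or more members and of CCDC54, taken from the genes with 3 by mean percentile, ordered by distance of the summit to the nearest protein-coding start in kb (y axis). Points are libraries and bars the mean and SD of 3. The genotypes overlap at 5 of the 7 CITED2 members, and 3 of the 4 ASAP1 members are lower in CREBBP-KO.

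Members near genes of pathways known in epithelial cells were counted from lists. Of 25 genes of EGF receptor signalling and its MAPK feedback, 7 had members, 9 in all, of which 1 was called higher and 1 lower, with a median shift of -0.24. Of the 159 tested intervals of these genes, 17 were higher and 38 lower, with a median of -0.14. The member near SPRY4, a feedback inhibitor of receptor tyrosine kinases, had folds of 17.5, 17.9 and 19.8 in WT and 26.8, 30.8 and 32.9 in CREBBP-KO (ranks 665 and 84, shift 0.77, SE 0.17, adjusted p = 0.00154 from limma). It was not called by -log10 p (adjusted p = 0.856 from limma). The member in ERRFI1-DT near ERRFI1, an inhibitor of the EGF receptor, had 28.8, 30.3 and 25.7 against 27, 23.1 and 24.7 (shift -0.65, SE 0.19, adjusted p = 0.00988 from limma), and lost the call without WT replicate 2 (adjusted p = 0.0559 from limma) or CREBBP-KO replicate 2 (adjusted p = 0.061 from limma), by -log10 p (0.186) and with centred log2 folds (0.063). The member in EGFR itself had a shift of 0.02 (adjusted p = 0.947 from limma).

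Of 18 genes of the YAP-TEAD pathway, 5 had 6 members, and 2 of these were called lower and 0 higher, with a median shift of -0.03. Of the 99 tested intervals of these genes, 10 were higher and 20 lower, with a median of -0.03. The 2 were the YAP1 member above and a member in CRIM1, which encodes a membrane protein that binds BMPs, at 38.9, 36 and 35.9 in WT and 29.0, 35.2 and 27.6 in CREBBP-KO (ranks 8 and 86, shift -0.97, SE 0.22, adjusted p = 0.00148 from limma). Near CCN1, a matricellular protein gene and YAP target, the folds were 34.7, 23.8 and 27.9 against 38.3, 36.5 and 36.3 (shift 0.27, SE 0.22, adjusted p = 0.335 from limma). Near NT5E, an ecto-nucleotidase gene, they were 20.9, 19.9 and 19.7 against 31.5, 28.5 and 23.7 without overlap (shift 0.38, SE 0.19, adjusted p = 0.113 from limma), a member called higher with centred log2 folds (0.0184) and without CREBBP-KO replicate 3 (0.0325). Of 16 AP-1 and immediate-early genes, ATF3 and KLF6 had 1 member each, and both were called lower. For ATF3, a stress-induced factor, the folds were 34.1, 29.8 and 27.7 against 28.5, 25.7 and 24.8 (shift -0.74, SE 0.19, adjusted p = 0.00486 from limma; 0.0964 when ranked by -log10 p). For KLF6 they were 20.1, 17.2 and 19.6 against 15.5, 17.7 and 15.6 (shift -0.56, SE 0.16, adjusted p = 0.00867 from limma; 0.0509 with centred log2 folds). Of the 83 tested intervals of these 16 genes, 6 ranked higher and 24 lower.

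Of 21 mesenchymal and matrix genes, 9 had 14 members, with 0 called higher and 3 lower, and with a median shift of -0.01. Of the 179 tested intervals of these genes, 33 were higher and 31 lower, with a median of 0.04. Promoter folds of the 7 mesenchymal markers were higher in every CREBBP-KO library than in any WT library when summed, as given above, and their part in these values was not tested. The 3 lower members were nearest to COL3A1, CDH2 and COL1A1. Near COL3A1, a fibrillar collagen gene, the folds were 31.0, 25.0 and 24.7 in WT and 17.8, 20.5 and 20.1 in CREBBP-KO (ranks 118 and 643, shift -1.01, SE 0.17, adjusted p = 0.000145 from limma), a call not made by -log10 p (adjusted p = 0.0697 from limma). For CDH2, the N-cadherin gene, a member with a shift of -1.35 (ranks 94 and 829, adjusted p = 6.88e-06 from limma) and a member with a shift of 0.22 (ranks 790 and 434, adjusted p = 0.373 from limma) lay 1003408 and 987181 bases from its start. The highest member near FN1, the fibronectin gene, in LINC00607, had folds of 36, 32.6 and 27.6 against 29.8, 31.5 and 39.4, with overlapping genotypes (ranks 29 and 45). Near SPARC, a matricellular protein gene, the folds were 27.5, 23.8 and 27.3 against 29.4, 37.7 and 37.2 without overlap (shift 0.30, SE 0.20, adjusted p = 0.232 from limma), and the member was called higher with centred log2 folds (0.0295). The higher member near COL1A2, a collagen gene, had 27.9, 22.8 and 15.2 against 30.6, 31.8 and 26.6, with overlap (shift 0.40, SE 0.24, adjusted p = 0.192 from limma), and was called higher with centred log2 folds (0.036) and without WT replicate 1 (0.0438).

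Of 16 TGF-beta genes, 5 had 6 members, of which 2 were higher and 1 lower, with a median shift of 0.01. Of the 120 tested intervals of these genes, 27 were higher and 10 lower, with a median of 0.14. Near SMAD6, an inhibitory SMAD, the folds were 17.0, 16.4 and 19.3 in WT and 24.3, 30.8 and 25.4 in CREBBP-KO (shift 0.60, SE 0.17, adjusted p = 0.00996 from limma), a call lost without CREBBP-KO replicate 2 (adjusted p = 0.0752 from limma) and by -log10 p (0.22). In LTBP1, another latent TGF-beta-binding protein gene, they were 27.7, 22.9 and 26.9 against 19.7, 23.1 and 22.4 (shift -0.71, SE 0.17, adjusted p = 0.00262 from limma). The member nearest to TGIF1, a corepressor of SMADs, had a shift of 0.45 (adjusted p = 0.0446 from limma), a call lost without WT replicate 1 or 3 or any CREBBP-KO library, at adjusted p of 0.0511 to 0.194 from limma, and by -log10 p (0.149), without a trend (0.0914) or without the fold filter (0.0695). Of 32 adhesion and actin genes, LAMA3, LPP and MICAL2 had 1 member each, of which LAMA3, a laminin chain gene, was called lower (shift -0.49, adjusted p = 0.0307 from limma). That call was lost without WT replicate 1 (adjusted p = 0.182 from limma), CREBBP-KO replicate 2 (adjusted p = 0.0681 from limma) or CREBBP-KO replicate 3 (adjusted p = 0.13 from limma), by -log10 p (0.16), with centred log2 folds (0.134) and without a trend (0.0917). Of the 179 tested intervals of this list, 29 were higher and 28 lower.

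Members near genes of colonic identity were 3 of the 62 tested intervals of that list, where members were 2.57% of all tested intervals. Of 23 such genes, KLF4 and KLF5, both epithelial zinc-finger factors, had 3 members and 0 were called, where 13 of 62 tested intervals of the list were higher and 8 lower. Near KLF4 the higher of 2 members, 558 kb away, had folds of 23.6, 22.1 and 20.9 in WT and 29.6, 29.5 and 27 in CREBBP-KO (shift 0.24, SE 0.17, adjusted p = 0.271 from limma), and it was called higher by -log10 p (0.0295) and with centred log2 folds (0.0479). FAS was the only one of 13 p53 targets with a member, at 21.3, 21.3 and 21.6 against 25.9, 24.2 and 24.5 (shift 0.00, adjusted p = 0.991 from limma). LIF and NFKB1 were the only ones of 20 NF-kB, cytokine and chemokine genes with members, and 0 of their 2 members were called. The LIF member (shift -0.39, adjusted p = 0.0578 from limma) was called lower when peaks were ranked by -log10 p (adjusted p = 0.00104 from limma). None of 14 acetyltransferase and bromodomain reader genes had a member. The list had 37 tested intervals, and with members at 2.57% of all tested intervals nothing is read from this. Of the 37, 9 were higher and 5 lower, with a median shift of 0.31.

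Single libraries held more strong distal intervals than the shared list. With a fold of at least 15 and the library's own summit more than 3 kb from a start, the WT libraries had 2375, 2056 and 1776 and the CREBBP-KO libraries 2004, 2279 and 2299. The means were 2069 ± 300 (SD, n = 3) and 2194 ± 165 (SD, n = 3), and the genotypes overlapped (two-sided exact permutation test, p = 0.7, where 3 against 3 cannot go below 0.1). The difference of 125 intervals became -21.5 without WT replicate 3. At the edge of the list, the members nearest to ROCK1, APPL2, TSHZ3 and ZNF184 had a lowest fold of 15.002, 15.005, 15.008 and 15.022, and distal intervals nearest to DNAJC1, TKT, VAC14 and WDR35 missed it with 14.994, 14.988, 14.975 and 14.973.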

How the data were processed

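H3K27ac ChIP-seq peak lists of 3 WT and 3 CREBBP-KO libraries of HCEC-1CT were used; the 2 input libraries were not analysed here. The authors mapped reads to hg38 with BWA in the nf-core ChIP-seq pipeline and ran MACS2 in narrow mode on each library. Peak height was deposited as a fold, a ratio over local background, and significance was deposited as -log10 p and -log10 q. The methods give an average sequencing depth and a cap for down-sampled reads, but the lists themselves hold no reads, so that the depth behind each list is unknown and no counting intervals are given; whether peaks were called earlier or later is not given in the sources used here.

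Overlapping or touching peaks were merged (143733 intervals, as with bedtools 2.31.1), and starts, genes and exons were taken from GENCODE release 44. Nearest genes are those of protein-coding transcripts. Rank shifts and log2 covered lengths were fitted with limma 3.58.1 in R 4.3.3 (eBayes with a trend, Benjamini-Hochberg adjustment over 34864 intervals); other steps used Python 3.11.15 with numpy 2.4.6, pandas 2.3.3 and scipy 1.17.1. The fits were tested on simulated data with few intervals changed, whereas 18.6% of tested intervals were called higher in rank and 18.7% lower in the data. The adjustment is stricter where few intervals change, so the recovery given here is not that of the reported fits. A planted rank shift of 1 was recovered in 18.5% of cases, one of 1.5 in 63.5% and one of 2 in 81%. A planted log2 change in covered length of 0.5 was recovered in 0.5% and one of 1 in 62%. An interval that is not called is still not shown to be unchanged. Motifs were searched in the reference as exact letters on both strands.

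The members and gene lists were chosen with earlier results of these data known. The text names the 12 members with the highest mean percentile, the 8 with the largest called shift without overlap in each direction, the members of the 6 genes with most (ties, as for CCDC54 with 3, by mean percentile), the 5 widest, the 4 on each side of the fold limit, the 4 with the largest called change in width in each direction, and up to 4 per gene list. A member that this rule names by its gain in width is not reported here. CDH2 and COL1A1, EGFR, and the choice of printed AP-1 windows fall outside this rule and were picked after their values were seen. Alternatives covered the thresholds, the ranking, the model, the width measure and each library left out.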

Additional observations from a re-analysis of the deposited data

How the results depend on the processing

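The number of members depended on the fold: 1952 intervals passed with a minimum of 12 and 246 with 20, while distances of 1 or 5 kb, protein-coding starts alone, the summit of every library and a -log10 q of at least 5 gave 787 to 1222, and leaving out 1 library 925 to 996. Members ranked higher numbered 113 with centred log2 folds, 33 without a trend and 2 at an adjusted p under 0.0001, and 42 to 54 with 1 library left out. Members ranked lower numbered 132 by -log10 p, 132 with centred log2 folds, 166 without a trend and 22 at 0.0001, and 180 to 275 with 1 library left out. Of all 34864 tested intervals, 16.9% were higher and 16.7% lower without a trend, and 405 were higher and 566 lower at 0.0001. With 1 library left out, 13.9% to 18.1% of them were higher and 14.8% to 17.3% lower. Without the fold filter 46 members ranked higher and 218 lower, where 12.5% of all intervals tested that way were higher and 12.1% lower. Wider members numbered 9 by the length of the highest peak, 9 without a trend and 11 to 22 with 1 library left out. Narrower members numbered 16, 17 and 17 to 47. Of all tested intervals, 1.64%, 4.16% and 2.25% to 3.65% were wider and 1.76%, 3.41% and 1.74% to 4.43% narrower, in the same order of settings. The cause of these differences was not tested. In members without a transcript start, an alternative chosen after seeing the data, 27 were wider and 34 narrower. The difference in strong distal intervals per library ranged from -21.5 to 278 with 1 library left out. Within 75 bases of the summit, AP-1 was found in 3.46% of members, the window being shorter by construction; with the WT or the CREBBP-KO summit the share was 10.7% or 8.47%.

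Libraries that share a number did not deviate together: the correlations of their deviations were 0.0108, 0.0144 and 0.0284, and WT 1 correlated slightly better with CREBBP-KO 2, at 0.0118. The numbers are thus not shown to pair libraries. With a replicate block, 52 members ranked higher and 248 lower, and 15 were wider and 24 narrower, against 37 and 46 without it. Of all tested intervals, 18.7% ranked higher and 18.8% lower with the block, and 3.23% were wider and 2.67% narrower.

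Of the 92 named intervals whose rank shift was refitted under these alternatives, 43 were called. Of these, 0 changed sign under any alternative and 22 lost the call under at least 1, among them 19 when peaks were ranked by -log10 p. Of the intervals not called, 20 changed sign under some alternative. The lists hold heights and no reads, so that the limit that the depth of each library sets could not be measured.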
